A study of Mus musculus with 82 samples.

Results

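Connexins are the proteins of gap junctions, the channels through which small molecules and ions pass between cells or between the layers of 1 cell. The connexin transcripts described here are Gjb1 (Cx32), Gjc3 (Cx29), Gja1 (Cx43), Gjb2 (Cx26), Gjc1 (Cx45), Gja4 (Cx37) and Gja5 (Cx40). They were taken by gene symbol, ignoring case, from 8 tables of sciatic nerve RNA, and all 7 were found among the 14872 symbols that every table holds. The members were chosen by measured values of these data: Gjb1 parted from the other myelin genes in the groups after nerve injury, and its relatives were added for comparison. Changes between the injury times and from uninjured nerve are therefore given as a description without a test. Tests between Mutant and wild type nerves use the same injured libraries, so for Gjb1 their p-values are no independent support. All 7 members passed the filter on low counts in every table.

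In a myelinating Schwann cell, Gjb1 protein forms channels that join the folded layers of a single myelin sheath, and mutations of the gene cause X-linked Charcot-Marie-Tooth disease. Gjc3 protein sits in the innermost layers of the sheath next to the axon. Gja1 is made by many cell types, among them fibroblasts and astrocytes, Gjb2 by epithelia and by sheath cells such as those of the meninges, Gjc1 by smooth muscle and pericytes, and Gja4 and Gja5 by the endothelium of arteries. The sciatic nerve holds the Schwann cells together with vessels, fibroblasts, macrophages and the perineurial sheath.

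The 82 libraries form 22 groups. Fig4 +/+ and Fig4 -/- nerves were sampled at postnatal day 4 (P4) and in another table at P12, with 3 libraries a group. Nerves labelled DhhCre and Mitf at P21 had 5 libraries each, and nerves labelled Egr2Cre and Mitf at P12 had 3 each. The injury table held 4 uninjured libraries and 4 taken 3 days post injury, all labelled Mitf. The time course held 3 libraries each of wild type and Mutant nerves at 3, 7 and 14 days post injury and no uninjured nerve. A table with no age given held 3 Egr2Cre Mitf and 3 Mitf libraries, and the last, also with no age, had 4 groups: control (6 libraries), Mitf (6), Ndrg1 (5) and Mitf-Ndrg1 (5). In Cre lines named for Dhh or Egr2, the recombinase is made where those genes are active, which in nerve is the Schwann cell lineage. The labels do not say which allele of Mitf, Ndrg1 or the Mutant nerves carry, what the injury was, and whether each replicate is another animal; a p-value here reflects only how these libraries vary.

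Libraries held between 15438783 and 34531474 estimated counts. The targeted genes were checked first. Fig4 was 4.12 to 4.82 CPM (counts scaled to the library size, corrected for composition) in Fig4 -/- against 26.8 to 32.4 in Fig4 +/+ at P4, and 3.04 to 5.87 against 18.2 to 26.2 at P12. Ndrg1 was 160 to 191 CPM in the Ndrg1 and Mitf-Ndrg1 groups and 1440 to 2050 in the control and Mitf groups. Mitf was lower in the libraries labelled DhhCre, 4.31 to 7.03 CPM, than in those labelled Mitf at P21, 17.6 to 22 CPM, and it was lower in those labelled Egr2Cre, 6.75 to 9.57, than in those labelled Mitf at P12, 13.7 to 14.5. In the table with Ndrg1 it was lower in the Mitf group, 10.5 to 14.7, than in control, 15.2 to 21.6, so the label Mitf does not mark the same state in every table and directions are given by label. Genes of Schwann cells were present in every library, though their summed level ran from 562 CPM in a wild type nerve 7 days post injury to 125000 CPM in a nerve labelled Mitf at P12. In such bulk samples fewer cells of a type and less RNA per cell cannot be told apart. In the injury table, replicate 1 of the 3-day group stands apart: 5 genes of astrocytes, a cell of the brain and spinal cord, summed to 10700 CPM there and to at most 54.5 CPM in each of the other 81 libraries, although the table with Ndrg1 holds 3 of the 5. The skeletal muscle list summed to between 5930 and 152000 CPM in the 6 libraries of day 14 of the time course.

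Gjb1 is on the X chromosome (mm10, chrX:101376378-101385629, plus strand, ENSMUSG00000047797) and is known for alternative promoters, of which one serves nerve and another liver. Gjc3 (chr5:137953461-137963098, minus strand, ENSMUSG00000056966) is the other connexin of the sheath. RefSeq promoter windows of the build GRCm38.p6, 250 bases before to 50 after a start site, were found for 6 of the 7 members, with 4 windows for Gjb1. They were searched on both strands for CACGTG and CATGTG (letters that Mitf and its relatives bind), ACAAAG and ACAATG (SOX factors, Sox10 among them), GCGTGGG (EGR factors), TGANTCA (AP-1, which holds Jun) and GGAATG (TEAD factors). The most upstream Gjb1 window, the most downstream one and that of Gjc3 are shown because the 2 genes share the myelin sheath and their levels part after injury. Capitals mark the letters found, on either strand.
Gjb1 upstream window, chrX:101376126-101376425, plus strand: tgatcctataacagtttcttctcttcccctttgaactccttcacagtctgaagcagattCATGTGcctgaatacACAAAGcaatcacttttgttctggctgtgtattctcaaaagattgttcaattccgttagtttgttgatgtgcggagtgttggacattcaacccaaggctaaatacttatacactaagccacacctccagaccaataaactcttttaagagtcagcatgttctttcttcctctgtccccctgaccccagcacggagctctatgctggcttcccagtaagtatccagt
Gjb1 downstream window, chrX:101383482-101383781, plus strand: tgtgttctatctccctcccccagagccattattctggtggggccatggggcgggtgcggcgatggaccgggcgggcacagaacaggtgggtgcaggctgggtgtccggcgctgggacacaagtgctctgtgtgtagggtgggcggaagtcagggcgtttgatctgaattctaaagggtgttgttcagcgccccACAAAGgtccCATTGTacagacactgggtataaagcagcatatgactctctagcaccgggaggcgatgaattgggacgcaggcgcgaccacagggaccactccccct
Gjc3 window, chr5:137963049-137963348, minus strand: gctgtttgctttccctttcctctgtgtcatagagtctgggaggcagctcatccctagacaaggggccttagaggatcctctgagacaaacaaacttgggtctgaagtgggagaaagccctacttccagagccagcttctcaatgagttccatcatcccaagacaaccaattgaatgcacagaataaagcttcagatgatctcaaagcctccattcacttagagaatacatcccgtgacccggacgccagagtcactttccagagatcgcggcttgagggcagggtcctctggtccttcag
The downstream Gjb1 window holds ACAAAG on the strand shown and ACAATG on the other, starting 57 and 47 bases before the start site. The upstream one holds CATGTG and ACAAAG at 191 and 176 bases before it. Of the Gjb1 windows not shown, the second holds GGAATG 226 bases before its start site and the third holds none of the 7 motifs. The Gjc3 window also holds none, but 4 windows were searched for Gjb1 and 1 for Gjc3. ACAAAG stood in 18.7%, ACAATG in 12.6%, CATGTG in 14.2% and GGAATG in 14.7% of all 32851 windows of this length. These shares are per window and not per gene, and the matches are a description of these letters only.

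Gjb1 and Gjc3 were the most abundant of the 7 members, per length, in the control nerves of the table with Ndrg1 and in the uninjured nerves of the injury table. Gjb1 was between 180 and 214.1 CPM in the 6 control libraries of the table with Ndrg1, with a median of 197.6, and Gjc3 was between 360.9 and 428 CPM. Per kilobase of the longest transcript, the control level was 126 CPM per kb ± 7.5 (SD, n = 6) for Gjb1 and 98.6 ± 6.02 for Gjc3. With the median transcript length Gjc3 becomes the higher, at 172 against 127, so the order of the 2 depends on the transcript in use. The other members were far lower per kilobase of the longest transcript: Gja1 at 5.65, Gjc1 at 2.75, Gja4 at 2.5, Gjb2 at 2.43 and Gja5 at 0.372. By that length Gjc1, Gja4 and Gjb2 did not differ beyond their SDs, which were between 0.293 and 0.543. With the median transcript length Gjc1 was the highest of these, at 4.94 against 2.5 for Gja4 and 2.43 for Gjb2.

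The 2 sheath connexins stood in another proportion at P21 than at P4 and P12, in tables made from separate libraries and scaled separately, so their levels are set side by side without a test. Gjc3 was 678, 1182 and 1179 CPM in Fig4 +/+ nerves at P4, 1134, 925.5 and 960 CPM at P12, and between 286.3 and 411.8 CPM in DhhCre nerves at P21. Gjb1 was 49.28, 111.6 and 104.6 CPM at P4, 103.2, 93.9 and 78 CPM at P12, and between 197.1 and 239.9 CPM at P21. The P21 libraries thus lie below every P4 and P12 library for Gjc3 and above every one for Gjb1. As a share of all connexin counts, not scaled by length, Gjb1 made up a mean of 7.19% in Fig4 +/+ at P4, 8.04% at P12 and 35.4% in DhhCre at P21. The P4 and P12 shares are alike, and the other P12 table gave 14.9% in Egr2Cre and 16.6% in Mitf nerves, so tables of 1 age differ too. Gjc1 was 23.1 to 25.35 CPM at P4 and 11.34 to 15.47 CPM at P12, and Gja4 was 7.123 to 18.15 and 1.838 to 3.393 CPM.

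**Figure D1:**
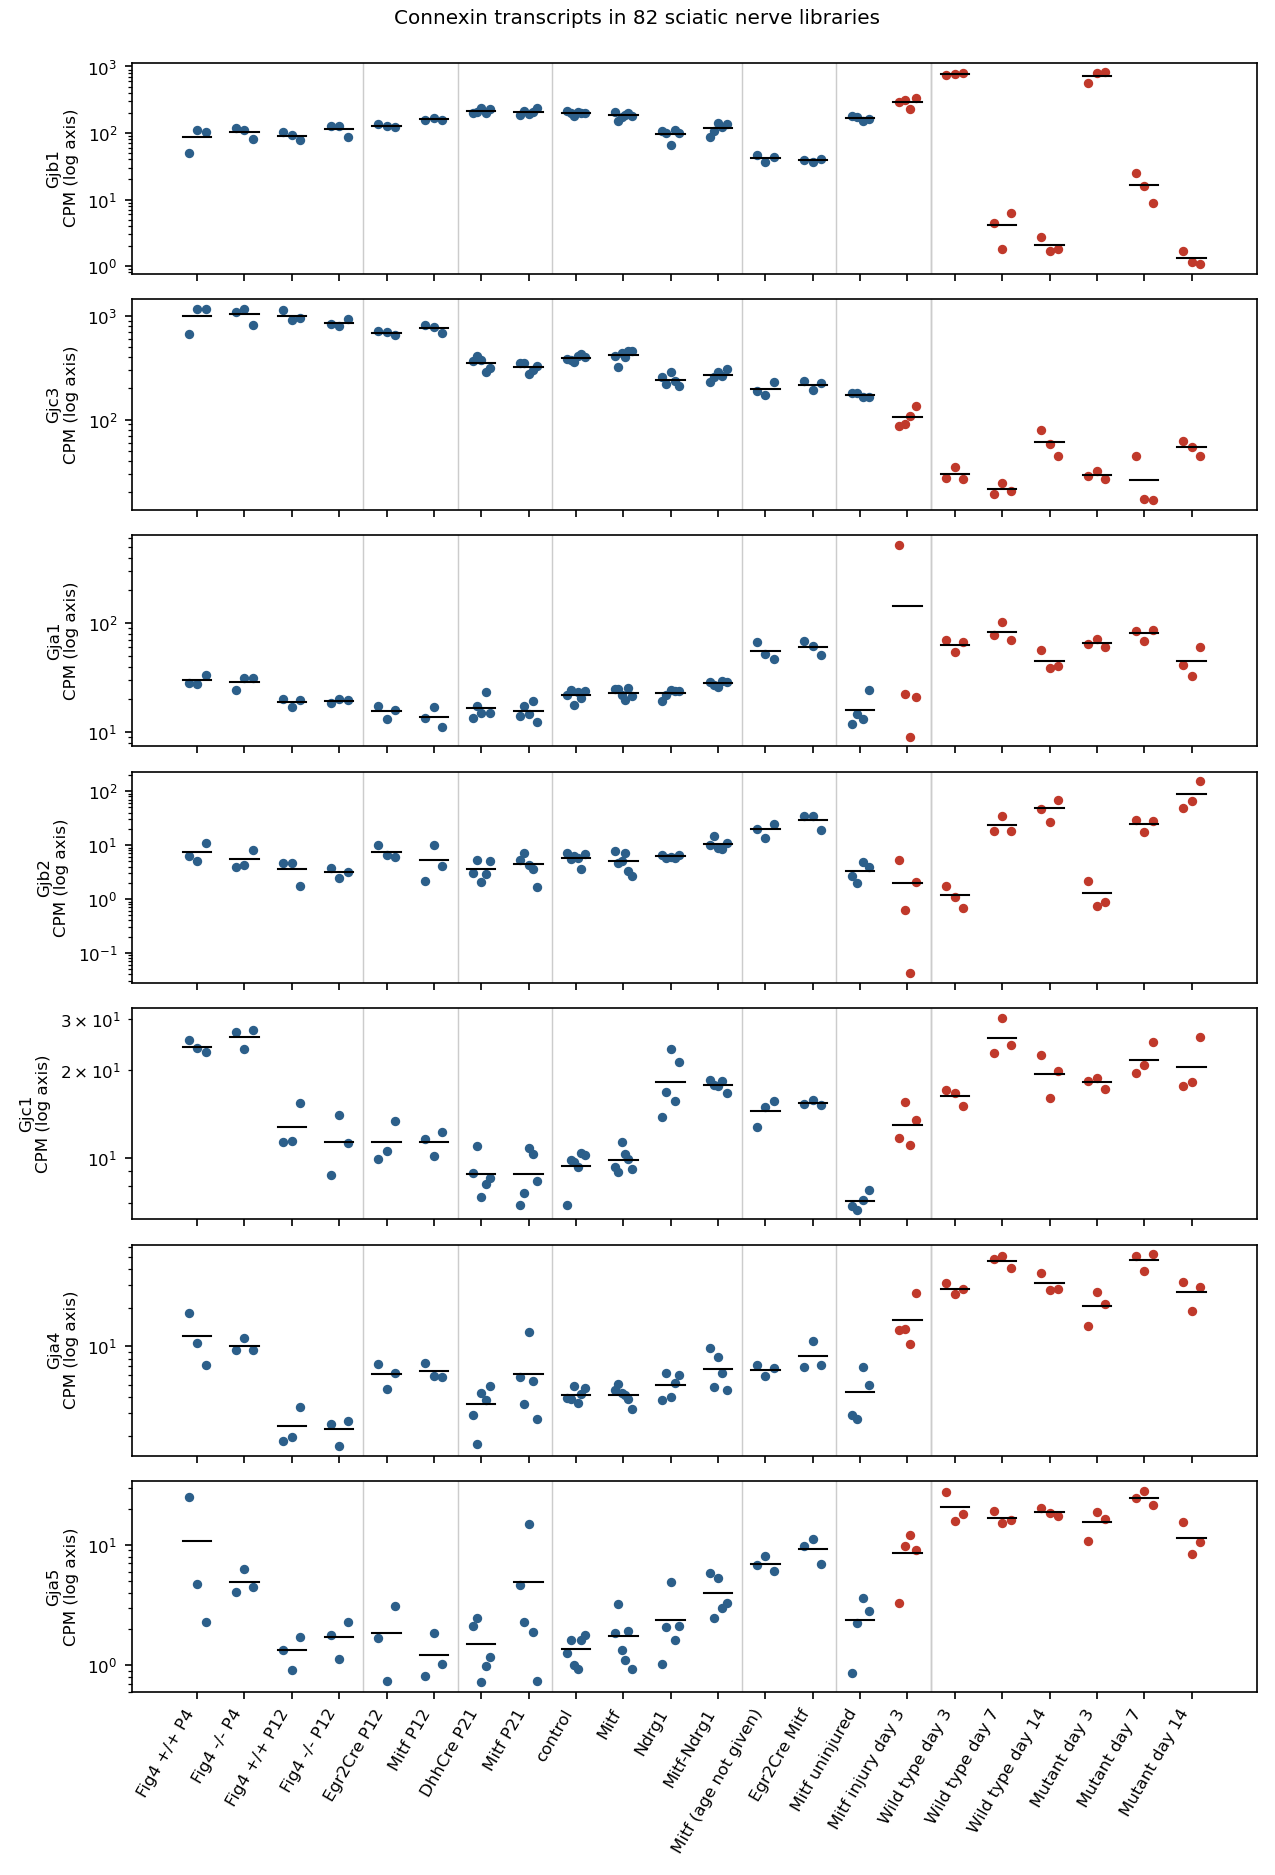
CPM of each connexin (log axis, 1 panel a gene) in all 82 libraries by group, blue for nerves without a stated injury and red for nerves after injury. Points are libraries and bars are group means; grey lines part the tables, except that both Fig4 tables share the first block. Gjb1 is between 565.5 and 821.3 CPM at day 3 of the time course and at most 25.14 CPM at days 7 and 14.

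In the injury table Gjb1 was higher 3 days post injury than in uninjured nerve. It measured 177.9, 171.5, 153.3 and 161.3 CPM in the uninjured libraries and 296.2, 315.3, 229.6 and 336.1 CPM at day 3. Every injured library lay above every uninjured one, and the log2 change was 0.83 (SE 0.143, n = 4 and 4). The 18 listed myelin genes had a median log2 change of -0.92 in the same libraries, and each of them lay below Gjb1. Without the library that holds the astrocyte genes the log2 change of Gjb1 was 0.82. Gjc3 measured 181.9, 180.2, 164.8 and 163.9 CPM uninjured and 86.68, 91.3, 109.7 and 136.4 CPM at day 3, a log2 change of -0.70 (SE 0.153), with 12 of the 18 myelin genes below it and 6 above. The 2 connexins of the sheath thus stood on opposite sides of their uninjured levels.

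Gja4, Gjc1 and, with overlap, Gja5 were higher at day 3. Gja4 measured 2.931, 2.723, 6.873 and 4.984 CPM uninjured and 13.48, 13.76, 10.49 and 26.28 CPM injured, a log2 change of 1.87 (SE 0.384). Gjc1 measured 6.83, 6.648, 7.163 and 7.748 CPM uninjured and 11.69, 15.52, 11.08 and 13.49 CPM injured, a log2 change of 0.87 (SE 0.196). In both genes every injured library lay above every uninjured one. Gja5 had a log2 change of 1.84 (SE 0.507) with groups that overlapped, since the injured replicate 1 was 3.312 CPM and the other 3 were 9.032 to 12.13. The endothelial list summed to 593 to 674 CPM uninjured and 557 to 931 CPM injured, and the arterial list to 92.9 to 107 and 111 to 159 CPM. The part of these cells in the levels of Gja4 and Gja5 was not tested. In all, 4 of the 7 members had groups that did not overlap, in a comparison where 22.1% of all genes passed the test and 28.4% had no overlap.

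Gja1 rested on 1 library. It measured 521.5, 22.31, 9.08 and 21.24 CPM at day 3 and 11.88 to 24.54 CPM uninjured, and the 521.5 belongs to the library with the astrocyte genes. The log2 change was 3.16 (SE 1.42) with that library and 0.13 (SE 0.338) without it. Gjb2 was 5.253 CPM in that library, 0.6239, 0.04196 and 2.055 CPM in the other injured ones and 2.002 to 4.803 CPM uninjured. Its log2 change was -0.74 (SE 0.95) with the library and -1.87 (SE 0.911) without it. Gjb6 (Cx30), a connexin of astrocytes that is not a member, was 92.8 CPM there and at most 1.45 CPM in the uninjured libraries.

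In the time course Gjb1 was far lower at days 7 and 14 than at day 3. It measured 742.1, 772.5 and 795.4 CPM in wild type nerves at day 3, then 4.449, 1.825 and 6.167 CPM at day 7 and 2.725, 1.697 and 1.779 CPM at day 14. The estimated counts behind these values were 16326 to 19026 at day 3, 37 to 93 at day 7 and 23 to 44 at day 14, so the later values have much the larger counting error. Gjb1 made up a mean of 80.6%, 1.85% and 0.791% of all connexin counts at the 3 times. Day 7 was 187-fold lower than day 3, a log2 change of -7.55 (SE 0.481, n = 3 and 3). Day 14 and day 7 overlapped, with a log2 change of -0.98 (SE 0.417). Between days 3 and 7 the 18 myelin genes had a median log2 change of -1.70, with Cldn19, a tight junction protein of myelin, the lowest at -4.12, so Gjb1 lay below all 18. Between days 7 and 14 their median was 1.44 and Gjb1 again lay below all 18.

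Gjc3 kept a measurable level throughout. It was 27.13, 34.94 and 26.7 CPM in wild type nerves at day 3, 19.15, 24.54 and 20.43 CPM at day 7, and 78.99, 58.42 and 45.02 CPM at day 14. The log2 change was -0.47 (SE 0.309) from day 3 to day 7 and 1.51 (SE 0.314) from day 7 to day 14, the latter with 9 myelin genes above it and 9 below. Per kilobase of the longest transcript, Gjc3 was thus below Gjb1 in every wild type library of day 3, 6.67 to 8.73 against 468 to 502 CPM per kb, and above it in every one of days 7 and 14, at 4.79 or more against 3.89 or less. The Schwann list summed to 1880 to 2090 CPM in these day 3 libraries and to 15800 to 42800 CPM at day 3 of the injury table, so the 2 tables differ at the same stated time. No uninjured nerve of the time course was analysed here.

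Gjb2 had the opposite course to Gjb1. It measured 1.773, 1.096 and 0.6967 CPM in wild type nerves at day 3, 18.04, 35.12 and 18.3 CPM at day 7 and 47.26, 27.44 and 69.51 CPM at day 14. Day 7 was 20-fold higher than day 3, a log2 change of 4.32 (SE 0.574), and day 14 overlapped day 7. Per kilobase, Gjb2 was at most 0.737 CPM per kb at day 3 and at least 7.5 at days 7 and 14 in wild type, so it too was above Gjb1 in every later library. Over the same days the fibroblast list summed to 5490 to 7180 CPM at day 3, 16100 to 26600 CPM at day 7 and 14600 to 20000 CPM at day 14 in wild type, and the perineurial list to 330 to 363, 344 to 503 and 674 to 956 CPM at days 3, 7 and 14. Their part in the level of Gjb2 was not tested.

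Gja4, Gjc1, Gja5 and Gja1 had far smaller differences between the times. Gja4 was highest at day 7, at 47.77, 50.9 and 40.45 CPM, against 25.74 to 31 CPM at day 3 and 27.59 to 37.35 CPM at day 14. Gjc1 had the same order, with 22.99, 30.28 and 24.34 CPM at day 7 and a log2 change of 0.66 (SE 0.167) from day 3. Gja1 was 54.64 to 69.86, 70.32 to 101.9 and 38.48 to 56.5 CPM at days 3, 7 and 14. Gja5 was 15.93 to 27.41, 15.29 to 18.97 and 17.41 to 20.25 CPM, with overlap between all 3 times. Of the 7 members, 6 had groups without overlap between days 3 and 7 in wild type, where 39.1% of genes passed the test and 56.3% had no overlap. Between days 7 and 14 there were 4, where 7.41% of genes passed and 33.3% had no overlap. The counts in the Mutant nerves were 5, beside 33.4% of genes passing and 59% without overlap, and 6, beside 17.7% and 30%.

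**Figure D2:**
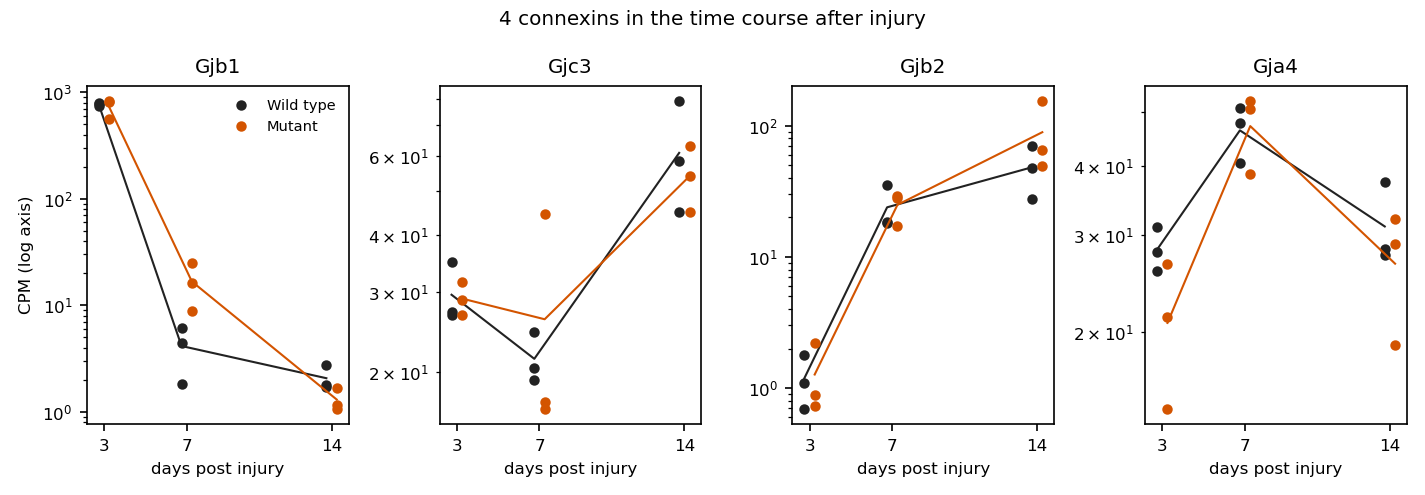
CPM (log axis) of Gjb1, Gjc3, Gjb2 and Gja4 against days post injury, with 3 libraries a point in time for wild type (black) and Mutant (orange) nerves. Points are libraries and lines join group means; Gjb1 is 8.821 to 25.14 CPM in Mutant nerves at day 7 and 1.825 to 6.167 CPM in wild type.

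In the Mutant nerves Gjb1 was also high at day 3 and low at day 14, with an intermediate level at day 7. It measured 565.5, 801.7 and 821.3 CPM at day 3, 25.14, 16.2 and 8.821 CPM at day 7 and 1.683, 1.159 and 1.069 CPM at day 14. The log2 changes were -5.45 (SE 0.433) and -3.67 (SE 0.433), and Gjb1 lay below all 18 myelin genes in both steps. At day 7 the order of Gjb1 and Gjc3 in the Mutant libraries depended on the transcript length used: Gjb1 was the higher in all 3 with the longest transcript and in 1 of 3 with the median length. All 3 Mutant libraries lay above the 3 wild type ones at day 7. The log2 difference was 2.02 (SE 0.39), or 4.07-fold, and it did not pass edgeR's quasi-likelihood test with Benjamini-Hochberg adjustment (adjusted p = 0.13). DESeq2 did call it (adjusted p = 0.000305), as edgeR did without replicate 3 of the Mutant nerves at day 7 (adjusted p = 0.0448). The adjusted p ran from 0.000305 to 0.331 over the 7 alternative settings and from 0.0448 to 0.369 with 1 library left out. Gjc3 had a log2 difference of 0.29 at day 7 (SE 0.309, edgeR adjusted p = 0.703). At day 14 the 3 Mutant libraries lay only just below the wild type ones, at most 1.683 CPM against at least 1.697 CPM. The log2 difference was -0.66 (SE 0.451, edgeR adjusted p = 0.342).

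Of the 7 members, 0 were called between Mutant and wild type at day 3, day 7 or day 14, where 0%, 0% and 8.29% of all genes were called by edgeR. At an unadjusted p under 0.05 the counts were 0, 2 and 1, and DESeq2 called 0, 1 and 1. Besides Gjb1, only Gja5 had no overlap between the groups at day 7 and at day 14, which makes 2 of 7 members at each time. For Gjb1 at day 14 the groups were parted only by 1.683 against 1.697 CPM. Over all genes, 22.5% had no overlap at day 7 and 24.9% at day 14, so these counts are near that share. Gja5 was 24.39, 28.35 and 21.65 CPM in Mutant against 18.97, 15.29 and 16.11 in wild type at day 7. At day 14 it was 15.58, 8.477 and 10.48 against 20.25, 18.59 and 17.41. Its log2 difference was 0.56 (SE 0.245, edgeR adjusted p = 0.356) at day 7 and -0.70 (SE 0.248, adjusted p = 0.086) at day 14. At day 14 DESeq2 called it (adjusted p = 0.0419), and so did edgeR without replicate 1 of the Mutant nerves (log2 difference -0.98, adjusted p = 0.0288). The endothelial list summed to 1670 to 2250 CPM in Mutant and 1140 to 1500 CPM in wild type at day 7. Its part in the difference of Gja5 was not tested. The test of whether the difference between genotypes changes with time gave edgeR adjusted p = 0.108 for Gjb1 and 0.218 for Gja5. It called 0.082% of genes and 0 members, with 2 members at an unadjusted p under 0.05 and 2 called by DESeq2. Gjb1 was chosen on its course in these libraries, so its p-values between genotypes only describe them.

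Replicate 1 of the Mutant nerves at day 7 stands apart in its myelin genes, with a Schwann list sum of 7590 CPM beside 855 and 1170 in the other 2 libraries. Gjb1 there was 25.14 CPM and Gjc3 44.61 CPM, the highest of each group of 3. The 18 myelin genes had a median log2 difference between Mutant and wild type of 2.52 at day 7 with that library and 0.36 without it, and 7 of them lay below Gjb1 with it and all 18 without it. Without that library the log2 difference of Gjb1 at day 7 was 1.62 and the log2 change of Gjc3 from day 3 to day 7 in the Mutant nerves was -0.77 in place of -0.15. Gjb2 measured 2.189, 0.7281 and 0.8903 CPM in Mutant nerves at day 3, 29.23, 17.3 and 28.12 CPM at day 7 and 49.3, 64.78 and 152.7 CPM at day 14. Its log2 change from day 3 to day 7 was 4.31 (SE 0.572), beside 4.32 in wild type.

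The rule that chose the members named the groups after injury and not the table with Ndrg1. The members and the gene lists were still chosen with earlier results of these data known. In the table with Ndrg1 the 2 sheath connexins fell. Ndrg1 is a protein of myelinating Schwann cells whose mutation causes a demyelinating neuropathy. Gjb1 was 107.3, 101.4, 66.4, 109.4 and 98.72 CPM in the Ndrg1 libraries, all below the control libraries at 180 to 214.1 CPM. It fell by 2.06-fold, a log2 change of -1.04 (SE 0.122, edgeR adjusted p = 8.08e-08). Gjc3 was 257.4, 221.4, 290.7, 234.6 and 209.8 CPM against 360.9 to 428 CPM, a log2 change of -0.70 (SE 0.0994, edgeR adjusted p = 1.48e-06). Gjc1 rose from 6.886 to 10.4 CPM in control to 13.79, 16.83, 23.73, 15.67 and 21.42 CPM (log2 change 0.96, SE 0.121, edgeR adjusted p = 2.73e-07). These 3 of 7 members, 1 higher and 2 lower, passed the test in a comparison where 60.5% of all genes did, 30.8% higher and 29.7% lower.

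The other 4 members did not pass in Ndrg1 against control. Gja5 had a log2 change of 0.76 (SE 0.351, edgeR adjusted p = 0.0636), which passed when Ndrg1 replicate 1 or replicate 4 was left out (adjusted p = 0.0217 and 0.0481). Gja4 had 0.26 (SE 0.182), Gjb2 0.08 (SE 0.222) and Gja1 0.05 (SE 0.0881). The median log2 change of the 7 was 0.08, beside 0.02 over all genes. The Schwann list summed to 16100 to 20500 CPM in Ndrg1 against 67700 to 91000 CPM in control, the macrophage list to 3190 to 4230 against 471 to 626, the endothelial list to 276 to 322 against 499 to 585, and the smooth muscle and pericyte list to 471 to 541 against 627 to 695. The arterial list was higher, at 156 to 177 against 98.9 to 116 CPM. The part of these cell types in the changes of the members was not tested.

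With the Mitf label on both sides, all 7 members passed the test. In Mitf-Ndrg1 against Mitf nerves, where 57.6% of genes were called, 29.7% higher and 27.9% lower, 5 members rose and 2 fell. Gjb1 was 86.33, 108.3, 141.4, 122.5 and 136.9 CPM against 152.7 to 205 CPM, a log2 change of -0.63 (SE 0.121, edgeR adjusted p = 0.000101). Gjc3 fell by about the same, -0.63 (SE 0.0992, edgeR adjusted p = 8.22e-06). Gjb2 was 10.03, 15.06, 8.766, 8.594 and 11.04 CPM against 2.686 to 7.66 CPM and rose by 1.07 (SE 0.22, edgeR adjusted p = 0.000206). Gjc1 rose by 0.85 (SE 0.121) and Gja1 by 0.29 (SE 0.0874), with no overlap between groups. Gja4 and Gja5 rose by 0.68 (SE 0.18) and 1.21 (SE 0.342), with groups that overlapped. The endothelial list summed to 341 to 431 CPM against 515 to 631 CPM and the arterial list to 169 to 185 against 109 to 121 CPM. The Schwann list summed to 13600 to 29800 against 65800 to 97500 CPM and the macrophage list to 3300 to 4590 against 484 to 609 CPM, and the part of these cell types was not tested.

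**Figure D3:**
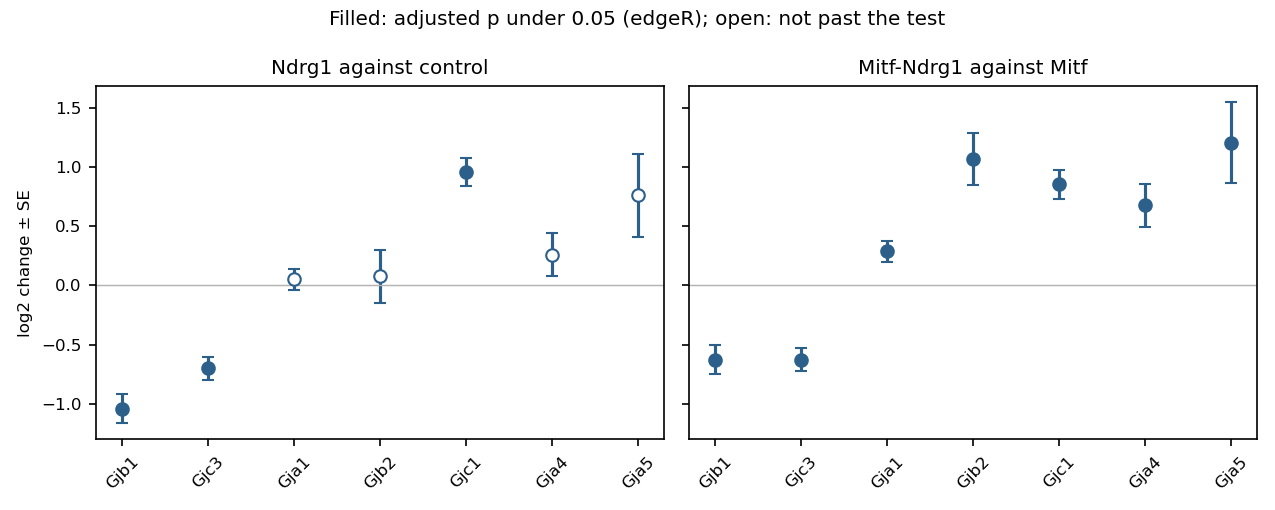
Log2 change ± SE of each connexin in Ndrg1 against control (5 and 6 libraries) and in Mitf-Ndrg1 against Mitf (5 and 6 libraries), from edgeR. Filled points passed the test: 3 in the left panel and 7 in the right one.

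Passing in 1 of these comparisons and not in the other does not show a difference between them. The test of that difference, the interaction of the 2 labels, called 0 of the 7 members by edgeR and by DESeq2, with 0.39% of genes called and 2 members, Gjb1 and Gjb2, at an unadjusted p under 0.05. The log2 interaction was 0.99 for Gjb2 (SE 0.313, edgeR adjusted p = 0.14) and 0.42 for Gjb1 (SE 0.169, adjusted p = 0.253). Mitf-Ndrg1 against Ndrg1 called 0 members by edgeR, with 1.47% of genes called, 5 members at an unadjusted p under 0.05 and 2 called by DESeq2. Those were Gja1, whose log2 difference with edgeR was 0.31 (SE 0.0917, adjusted p = 0.0844), and Gjb2, with 0.79 (SE 0.23, adjusted p = 0.0776). In both genes all 5 Mitf-Ndrg1 libraries lay above the 5 Ndrg1 ones. The DESeq2 adjusted p was 0.0414 and 0.0274. Mitf against control called 0 members, with 0.00629% of genes called, 0 at an unadjusted p under 0.05 and 0 by DESeq2.

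All 18 myelin genes fell in both comparisons of Ndrg1, and Gjb1 fell by less than most of them. The median log2 change of the list was -1.48 in Ndrg1 against control, and 16 of the 18 lay below Gjb1 and 17 below Gjc3. In Mitf-Ndrg1 against Mitf the median was -1.34 and 17 of 18 lay below each of the 2 connexins. The log2 ratio of Gjb1 to the median myelin gene was compared between groups by a two-sided exact permutation test over libraries, adjusted over 5 such comparisons. In Mitf-Ndrg1 it was -2.66 ± 0.132 (SD, n = 5) against -3.14 ± 0.121 (SD, n = 6) in Mitf, a difference of 0.48 (exact permutation p = 0.00216, the smallest this design allows, adjusted p = 0.0108), and it was higher in all 5 libraries than in any of the 6. In Ndrg1 against control the difference was 0.35 (exact permutation p = 0.0216, adjusted p = 0.0541). It passed with Ndrg1 replicate 3 left out, at 0.46 (exact permutation adjusted p = 0.0119). The other 3 comparisons gave differences between -0.02 and 0.12 (exact permutation adjusted p from 0.741 to 0.829).

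**Figure D4:**
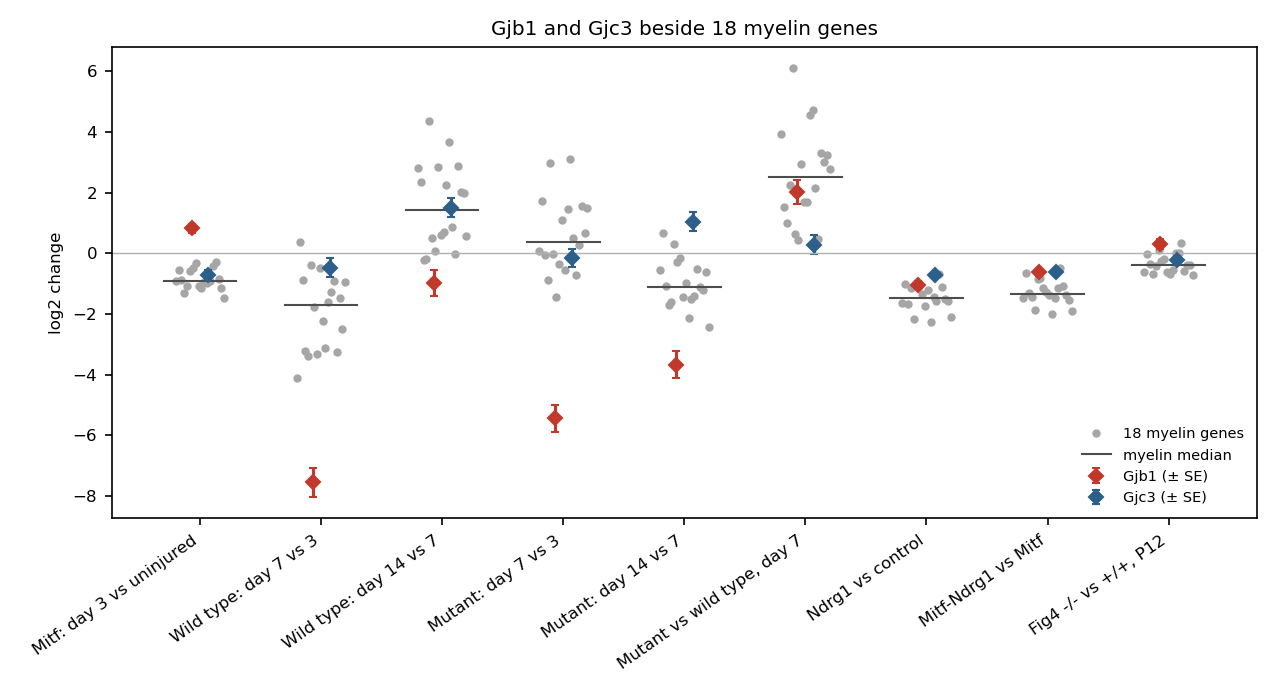
Log2 change of Gjb1 (red) and Gjc3 (blue), ± SE, beside the 18 listed myelin genes (grey, with their median as a bar) in 9 comparisons. Gjb1 is above all 18 at 3 days post injury and below all 18 in each of the 4 later steps of the time course, while it is inside their range in both Ndrg1 comparisons.

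In Ndrg1 against control, where 60.5% of all genes were called, 2 of 12 listed transcription factors of Schwann cells rose and 5 fell. With direction ignored, that share is near that of all genes. Sox10, which with Egr2 activates myelin genes, had a log2 change of -1.25 (SE 0.188, edgeR adjusted p = 4.89e-06) and Egr2 of -1.06 (SE 0.105, adjusted p = 4.89e-09). Jun, the factor of the repair state, rose by 1.14 (SE 0.0895, edgeR adjusted p = 1.03e-10) and Sox2, of immature Schwann cells, by 1.75 (SE 0.161, adjusted p = 1.73e-09). The list for the repair state had 12 genes that rose and 2 that fell among 14 measured, with a median log2 change of 2.90, beside 30.8% of all genes higher and 29.7% lower. Of 10 listed partners of gap junctions, 1 rose and 6 fell, with a median of -0.48, beside the same 30.8% and 29.7% of all genes. Only with direction ignored is their share near the 60.5% of all genes. Tjp1, which binds the tail of several connexins, had a log2 change of -0.64 (SE 0.112, edgeR adjusted p = 2.43e-05). Src, a kinase that acts on Gja1 protein, rose by 0.37 (SE 0.103, adjusted p = 0.00329).

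Other connexins differed too in Ndrg1 against control. Gjb5 (Cx31.1) and Gjb6 rose by 0.41 (SE 0.157, edgeR adjusted p = 0.0272) and 0.91 (SE 0.368, adjusted p = 0.0366). Gjb5 had group means from 1.501 CPM in Fig4 +/+ at P12 to 36.41 CPM in Egr2Cre Mitf. Panx1, a pannexin that forms channels in the membrane of a single cell, rose by 1.87 (SE 0.124, edgeR adjusted p = 5.72e-12), from 3.279 to 4.184 CPM in control to 11.42 to 16.08 CPM in Ndrg1. Panx1 had a group mean of 2.888 CPM in uninjured nerve and 16.45 CPM 3 days post injury, and 54.29, 28.83 and 28.2 CPM in wild type at days 3, 7 and 14.

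None of the 7 members was called by edgeR or by DESeq2 in the remaining tables. Fig4 -/- against Fig4 +/+ called 0 of 7 at P12 (3.03% of genes called) and 0 of 7 at P4 (0.00672%), with 0 at an unadjusted p under 0.05 in each. At P12 Gjb1 was 128.9, 126 and 86.8 CPM against 103.2, 93.9 and 78 CPM, a log2 difference of 0.31 (SE 0.167, edgeR adjusted p = 0.372), while the myelin list had a median of -0.39 and 17 of 18 genes lay below Gjb1. The Y-linked genes were at 0 in all Fig4 +/+ libraries at P12 and summed to 40.7 to 152 CPM in all Fig4 -/- ones, so sex and genotype cannot be told apart there for Gjb1, which is X-linked. The difference of the Fig4 effect between the ages called 0 of 7 (0.167% of genes called), with 0 at an unadjusted p under 0.05. At P4 the Fig4 +/+ replicate 1 was low in Gjb1, 49.28 CPM, and high in Gja5, 25.12 CPM beside 4.729 and 2.276.

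The Mitf label against DhhCre at P21 (0.0143% of genes called) and against Egr2Cre at P12 (0.0139%) called 0 of 7 members each, with 0 and 1 at an unadjusted p under 0.05. The 1 was Gjb1 at P12, with 155.6, 166.1 and 158.2 CPM in Mitf above 136.4, 127 and 124.7 CPM in Egr2Cre, a log2 difference of 0.31 (SE 0.0962, edgeR adjusted p = 1). At P21 Gjb1 differed by -0.04 (SE 0.0801). Egr2Cre Mitf against Mitf called 0 members (0% of genes called), with 0 at an unadjusted p under 0.05, and Gjb1 there differed by -0.14 (SE 0.12). In that table Gjb1 was lower than in the other tables without a stated injury, 36.79 to 47.37 CPM, and the Gjb2 group means, 29.68 and 19.58 CPM, were higher than in those tables, at 10.7 CPM or less. Its muscle list summed to 16200 to 69200 CPM and its perineurial list to 1470 to 2570 CPM.

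Over the 22 group means, centred within each table, Gjb1 was closest to Foxq1 (Pearson r = 0.987), Fam83f (0.985), Eif3b (0.983), Tmem144 (0.983), Pgbd5 (0.982) and Rnf181 (0.981) among 12831 genes. Fam83f was 41.1 to 50.4 CPM in wild type at day 3 and 2.66 to 6.57 CPM at day 7. Without the 6 groups of the time course these r were between 0.515 and 0.843, so the likeness rests in large part on that table. Gjc3 was closer to a listed myelin gene outside the time course, with an r of 0.96 for Pmp22 over 16 groups and 0.80 over all 22. Gjb2 was closest to Svep1 (0.981), Cldn1 (0.975), a tight junction gene of the perineurial list, and Dact1 (0.972), and its r with Gjb1 was -0.965 over all groups and -0.651 without the time course. Gjc1 was closest to Rap2b, Elk3 and Runx1, Gja4 to Efna1, Aplnr and Eva1a, Gja5 to Lrg1, Plvap and Orai1, Gja1 to Slc1a4, Dcakd and Pdia5, and Gjc3 to Zfp3, Lrrtm4 and Sbspon. Gja4 and Gja5 had an r of 0.792 with each other, and of 0.923 without the time course. The points share libraries within a table, so these values describe the tables and carry no test.

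The remaining members lie at chr10:56377330-56402513 (Gja1, plus strand), chr14:57098600-57104702 (Gjb2, minus), chr11:102799579-102819700 (Gjc1, minus), chr4:127311421-127314039 (Gja4, minus) and chr3:96904693-97077416 (Gja5, plus) in GENCODE vM21 on mm10. The Gja5 span overlaps Gpr89 and other genes on the opposite strand. The kit marks strand but the use of strand in the counting is not given in the sources used here, so reads of Gja5 and of these genes may not have been told apart. Of the 6 members with a promoter window, Gja1 held TGANTCA 19 bases before its start and Gja5 held ACAAAG 125 bases before it, beside 7.81% and 18.7% of all windows, while the Gjb2 and Gja4 windows held none of the 7 motifs.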

How the data were processed

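Stranded mRNA libraries (TruSeq) were made from total RNA of frozen sciatic nerve, per the labels' protocols. The authors deposited estimated counts per gene, made with kallisto on mm10 per the submitters' processing notes; no source used here gives versions, annotation or the use of strand. Columns not used numbered 0. The members and all gene lists were chosen with earlier results of these data known, and the astrocyte list after its library was seen.

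Estimated counts were rounded, filtered with filterByExpr (minimum count 10), scaled by TMM within a table and tested two-sided over all genes of a table by edgeR (4.0.16, under R 4.3.3) with robust quasi-likelihood fits, calling a Benjamini-Hochberg adjusted p under 0.05. The time course had 1 fit for all its groups, as had the Ndrg1 table. CPM uses TMM-scaled library sizes. Log2 CPM has a pseudocount of 2. SEs are log2 changes over the root of their F statistic. Named genes were the members, the listed genes by counts and extremes, and the genes with the highest r to each member.

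Total counts of 15438783 to 34531474 set the precision of low genes. Alternatives were DESeq2 1.42.0, RLE scaling, no filter, a replicate block, a sex covariate, a skeletal muscle covariate, a fit of the compared groups alone and each library left out. Another form of the Gjb1 to myelin ratio and the values of some genes are not reported here. The muscle covariate in the time course and the table with Ndrg1 was added after seeing the data. Replicate numbers paired samples, every pair's correlation of deviations being over 0.1, only in the tables of DhhCre (0.119 to 0.299) and of Egr2Cre Mitf (0.123 to 0.34). No 2 libraries of a group were the same: over 124 pairs, chi-square per degree of freedom was at least 9.607. On simulated counts the test recovered 81% of 2-fold and 94% of 4-fold changes among 15910 genes for Ndrg1 against control. For Mutant against wild type at day 7 it recovered 35% and 87% among 15852. Each simulated gene had its mean level over all libraries of the table. Gjb1 was far lower at day 7 than at day 3, so these shares do not describe the test of Gjb1 at day 7.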

Additional observations from a re-analysis of the deposited data

Results flagged for a closer look

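5 of 56 groups of a member and a condition with 4 to 6 libraries held a library far from the others by Dixon's 95% limit, where chance gives about 1 in 20. Gja1 was 521.5 CPM in replicate 1 of the 3-day group of the injury table and 9.08 to 22.31 CPM in the others. In Ndrg1 replicate 3 Gjb1 was 66.4 CPM beside 98.72 to 109.4, and Gja5 was 4.916 CPM beside 1.022 to 2.113. Gja5 was 14.8 CPM in replicate 3 of the nerves labelled Mitf at P21, with 0.7351 to 4.639 CPM in the others. Gjc1 was 6.886 CPM in control replicate 1 of the table with Ndrg1, below 9.344 to 10.4.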

How the results depend on the processing

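All 3 members called in Ndrg1 against control and all 7 called in Mitf-Ndrg1 against Mitf kept their call and direction in every other setting. That makes 180 values of a member in a setting, single libraries left out included. With 1 library left out, 3 to 4 and 7 members were called in these comparisons. DESeq2 called 1 member in Mutant against wild type at day 7, 1 at day 14, 2 in genotype by time and 2 in Mitf-Ndrg1 against Ndrg1, in place of 0. With the skeletal muscle covariate 1 was called at day 14 (Gja5, -0.77) and 1 in genotype by time (Gjb1). With a single library left out, the count was 0 to 1 at day 7 and 0 to 1 at day 14, and the ratio of Gjb1 to myelin in Ndrg1 against control was 0.301 to 0.458. The cause of these changes was not tested. The replicate block changed no member's call. In the injury table, where numbers did not pair the samples, it gave Gja1 0.94 and Gjb2 -1.54. With the muscle covariate the log2 change of Gjb1 from day 3 to day 7 was -7.51 in wild type and -5.39 in Mutant, while that of Gja4 was 1.20 and 1.80. In the tested comparisons, 35 of 616 values of members turned sign under the other settings and 70 of 910 with 1 library left out. None of the values that turned passed the test in either fit. At 16 to 93 estimated counts, Gjb1 after day 3 is limited by depth in wild type and in Mutant nerves at day 14.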
